A study of Mus musculus with 9 samples.

Results

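Gene expression in salivary glands of mice that had been obese and then had a sleeve gastrectomy was set against that of glands of lean mice on chow. Both groups held 3 RNA sequencing libraries each, so that 6 of the 9 libraries of the study carry the comparison, and all genes counted in them were used. It asks what still separates the glands of operated mice from those of mice that were never obese. The mice were female C57BL/6 animals, and the submandibular and sublingual glands were taken at 34 weeks of age. Control mice ate standard chow. The operated mice (SG) were fed from 4 weeks of age a diet with 60% of its calories from fat for 20 weeks, which made them obese. At 24 weeks about 80% of the stomach was cut away along the greater curvature, under 2% isoflurane after a fast of 12 hours, and the glands were collected 10 weeks later. A group with the same fat-rich diet and no operation (diet-induced obese, DIO, 3 libraries) added to the estimate of spread, and its values stand beside some results.

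SG and control mice thus differ in the earlier diet, in the operation with its fast and anaesthesia, and in whatever diet followed. These cannot be told apart here: neither a sham group nor the diet after surgery is given in the labels. Nor do they tie a library to 1 animal, so p-values reflect only how much these libraries vary, and part of that may be technical. Because whole glands were sequenced, fewer cells of a type and less RNA per cell cannot be told apart.

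The submandibular gland of mice combines serous acini, which secrete water, enzymes and mucin-like proteins, with ducts that reabsorb salt. Its granular convoluted ducts store kallikreins and growth factors such as EGF, while the sublingual gland is mostly mucous. Acinar cells make protein at a high rate and so depend on the folding and export machinery of the endoplasmic reticulum (ER). Sleeve gastrectomy reduces food intake and body weight and changes gut hormones, bile acids and lipid handling.

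Control libraries held 40010459 to 43495564 counts and SG libraries 36902065 to 40145157. Levels are CPM values, that is, counts scaled to a common library total, with library sizes scaled by the trimmed mean of M-values (TMM). They are given as mean ± SD over 3 libraries, and a floor of 3 counts corresponded to 0.0690 to 0.0813 CPM in these 6 libraries. The most abundant genes on the length-scaled FPKM scale encoded proteins of saliva. The median FPKM of Scgb1b27, a secretoglobin (androgen-binding protein family), was 121500 in control and 120300 in SG, that of Mucl2, a mucin-like protein, 84660 and 80580, and that of Prol1, a proline-rich secreted protein, 72480 and 80350. Control 2 stood apart before any comparison. Its Spearman correlation with the remaining libraries averaged 0.973, where the other 8 had 0.985 to 0.987. The chi-square of its counts against the other control libraries was 126 and 168 per degree of freedom. Control 1 against control 3 gave 26.5, and pairs of SG libraries gave 52.6 to 80.8. It had the highest summed levels of parotid, lymph node, fat and cell cycle markers, as given below, so most results are stated with and without it.

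No gene passed the main test. Of 14912 genes tested with edgeR's quasi-likelihood F test on all 9 libraries, 0 had an adjusted p (Benjamini-Hochberg) under 0.05 (0%), and the smallest adjusted p was 0.0770. Before adjustment 1208 genes (8.10%) had a p under 0.05, 517 with higher (3.47%) and 691 with lower (4.63%) SG levels. The 3 SG libraries lay wholly above the 3 control libraries in 988 genes (6.63%) and wholly below them in 779 (5.22%), 11.8% together. Over all genes the median log2 fold change was 0.00 and 50.3% were higher in SG. DESeq2's Wald test on the same counts called 57 genes (0.382%), 14 higher (0.0939%) and 43 lower (0.288%). Without control 2 edgeR called 3 of 15092 genes (0.0199%), Angptl4 higher in SG (0.00663%) and Dclk2 and Dgki lower (0.0133%). In that fit 850 genes (5.63%) had a p under 0.05 before adjustment, and of the 14912 genes above the libraries of both groups did not overlap in 21.5%. With fewer libraries a lack of overlap arises more easily by chance, so this share cannot be set against the 11.8%. In what follows an adjusted p is edgeR's over all genes tested unless another tool is named, and "passed" refers to an adjusted p under 0.05.

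Dclk2 (NCBI gene 70762), a microtubule-binding kinase of the doublecortin family, had the largest difference among the genes with the smallest p-values. Its level was 3.46, 3.90 and 3.75 CPM in control 1 to 3 and 0.787, 0.312 and 0.583 CPM in SG 1 to 3. The groups lay far apart, with no overlap. This gene and the others given below for the smallest p on either side were chosen among genes without overlap. Their lack of overlap is therefore not a separate finding. The log2 fold change was -2.72 (SE 0.35, adjusted p = 0.0770), and without control 2 it was -2.69 (adjusted p = 0.0422). Over the 17 edgeR alternatives the adjusted p ran from 0.0195 to 0.342, under 0.05 in 3 of them, and DESeq2 gave an adjusted p of 4.16e-10.

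Dgki (320127), a diacylglycerol kinase, which turns the second messenger diacylglycerol into phosphatidic acid, was measured at 25.4, 20.0 and 30.2 CPM in control and at 12.7, 9.84 and 8.30 CPM in SG. All SG libraries were below all control libraries. The log2 fold change was -1.29 (SE 0.18, adjusted p = 0.0770), and without control 2 -1.45 (adjusted p = 0.0122). The adjusted p ranged from 0.0122 to 0.583 over the edgeR alternatives, again under 0.05 in 3. Its level in DIO glands was 6.85 ± 0.49 CPM, so the operated glands lay between the obese and the lean ones by their means. An earlier analysis of these data had picked Dgki on DIO against control, which favours that order.

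Angptl4 (57875), a secreted inhibitor of lipoprotein lipase that is induced by fatty acids, showed the other call without control 2. It held 2 counts in control 1 and 2 in control 3, 114 counts in control 2, and 176 counts over the 3 SG libraries. In CPM this was 0.0532, 2.57 and 0.0481 in control 1 to 3 and 1.19, 1.84 and 1.61 in SG 1 to 3. Control 2 exceeded every SG library while the other controls were under the floor of 3 counts. With all libraries the log2 fold change was 0.78 (SE 1.02, adjusted p = 0.895). Without control 2 the SG level was 30.6 times that of control 1 and control 3 together (exact 95% interval 11.7 to 114, which covers counting error only), with an adjusted p of 0.0422 in the edgeR fit. The adjusted p ranged from 0.0422 to 0.978 over the edgeR alternatives. The fat markers, given below, were also highest in control 2. As the mean over the list of the log2 deviation from each gene's mean over all libraries, they stood at 1.46 in control 2. Control 1 and control 3 were at -0.36 and 0.23, and SG 1 to 3 at -0.65, -0.02 and -0.35. Control 3 thus exceeded every SG library in this mean, but the members differed. Without control 2, 6 of the 19 were higher in SG and 13 lower. Fabp4, a fatty acid carrier among the higher ones, was at 14.8, 47.4 and 14.6 CPM in control and 14.4, 33.3 and 29.9 CPM in SG. The part of the fat markers in the result for Angptl4 was not tested.

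Other genes were also among those with the smallest p and lower SG levels. Tsc22d3 (14605), the glucocorticoid-induced leucine zipper GILZ, was at 57.5, 70.7 and 64.4 CPM in control and 38.5, 38.7 and 45.9 CPM in SG. The groups did not overlap, and the log2 fold change was -0.65 (SE 0.11, adjusted p = 0.220). Tob2 (57259), an antiproliferative protein that promotes mRNA deadenylation, was at 72.7, 72.7 and 79.2 CPM against 41.2, 39.1 and 56.2 CPM. SG 3 stood nearest to the controls for Tob2, and without it the gene passed (adjusted p = 0.0330), where all libraries gave a log2 fold change of -0.72 (SE 0.13, adjusted p = 0.326; range over the edgeR alternatives 0.0330 to 0.772). Gadd45g (23882), a growth arrest and stress gene, was at 13.6 ± 3.28 CPM in control and 6.57 ± 1.30 in SG (log2 fold change -1.05, adjusted p = 0.344).

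Genes with smaller fold changes to the same side follow. Susd2, a membrane protein with a sushi domain, was at 40.9, 41.7 and 40.1 CPM in control and 31.8, 30.8 and 33.0 CPM in SG. Sec24a, a cargo adaptor of the COPII vesicles that leave the ER, was at 61.9, 57.3 and 51.4 CPM against 43.6, 41.1 and 42.1 CPM. Kcnk6, a background potassium channel, averaged 34.1 ± 5.39 CPM in control and 22.8 ± 1.84 in SG, and Ripor2, a regulator of the small GTPase RhoA, 28.5 ± 1.55 and 20.5 ± 2.07 CPM. The SG libraries lay below the control libraries in each of these 4 genes, with log2 fold changes of -0.36 to -0.58 and an adjusted p of 0.344 for each.

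The genes with the smallest p and higher SG levels are given next. Ucp3 (22229), a mitochondrial carrier of the uncoupling protein family that is induced by fatty acids, was at 0.984, 1.42 and 0.698 CPM in control and 2.56, 2.60 and 4.05 CPM in SG. Its log2 fold change was 1.56 (SE 0.34, adjusted p = 0.427), and 1.86 without control 2. Egln3 (112407), the oxygen-sensing prolyl hydroxylase PHD3, was at 17.3, 21.2 and 22.4 CPM against 28.4, 30.9 and 32.3 CPM (log2 fold change 0.59, adjusted p = 0.344). In both genes each SG library exceeded each control library. Krt23, an epithelial keratin, averaged 77.2 ± 5.29 CPM in control and 107.9 ± 9.46 in SG. Elf3, an ETS transcription factor of epithelia, averaged 33.4 ± 4.69 and 48.9 ± 3.60 CPM.

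The remaining genes of this group include receptors and a ligand. Fzd6, a Wnt receptor, was at 18.0, 14.9 and 15.3 CPM in control and 25.9, 21.6 and 22.7 CPM in SG. Efna1, the ephrin A1 ligand, was at 14.9, 14.9 and 15.2 CPM against 18.9, 20.3 and 19.6 CPM, and Gprc6a, a receptor for amino acids and cations, averaged 12.8 ± 1.38 and 18.4 ± 1.72 CPM. Nceh1, a neutral cholesterol ester hydrolase, averaged 30.7 ± 0.78 CPM in control and 41.4 ± 3.51 in SG, and Ndufa12, a subunit of complex I, 28.7 ± 1.67 and 37.8 ± 1.84 CPM. Their log2 fold changes were 0.38 to 0.54, with adjusted p-values of 0.344 to 0.394. The 9 genes with higher and 9 with lower SG levels named so far, Angptl4 apart, were all called by DESeq2. They were chosen for a small edgeR p on the same counts, so these calls are not a separate finding. Under the edgeR alternatives Dclk2, Dgki and Tob2 passed in some and the other 15 in none.

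**Figure D1:**
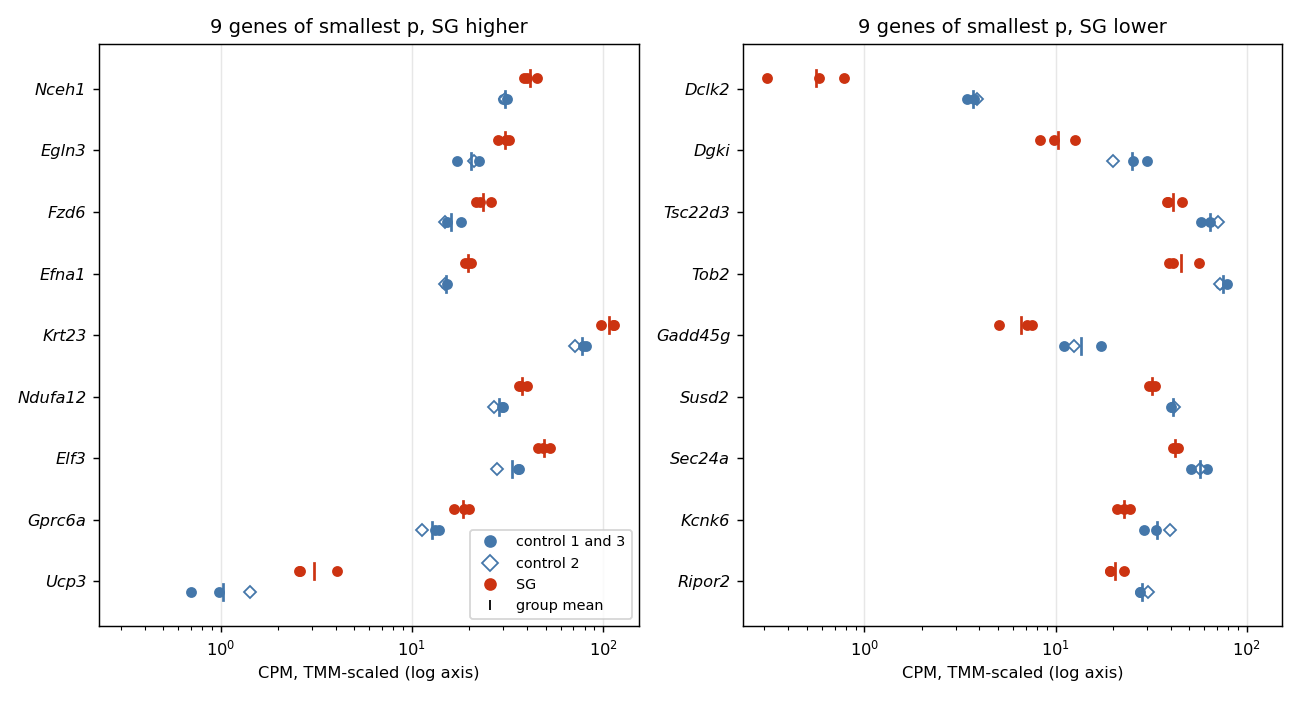
Levels in CPM (log axis) of 9 genes among the 10 of smallest p with higher SG levels (left) and 9 among the 10 with lower SG levels (right), chosen for non-overlapping groups. Each point is a library, the open diamond is control 2, and vertical bars are group means; Dclk2 shows the widest gap, at 0.312 to 0.787 CPM in SG and 3.46 to 3.90 CPM in control.

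The machinery of the secretory pathway was looked at next, through lists of genes that share a function. Such a list is described by how many of its measured members were higher or lower in SG and by its median log2 fold change, beside 50.3% higher and a median of 0.00 over all genes tested. Among genes for ER folding and the unfolded protein response, 20 of 27 were lower in SG and 7 higher (median -0.10, and -0.17 with 24 of 27 lower without control 2). None passed, and 4 had SG libraries wholly below control, as had 5.22% of all genes. The median was -0.05 without SG 1 and -0.25 without SG 2. Edem1 (192193), which hands misfolded glycoproteins to degradation, was at 154, 155 and 153 CPM in control and 112, 124 and 116 CPM in SG (log2 fold change -0.39, SE 0.08, adjusted p = 0.427; DESeq2 adjusted p = 0.00152). The controls were almost identical and every SG library was lower. Eif2ak3, the stress sensor kinase PERK, was at 144, 152 and 157 CPM against 122, 104 and 120 CPM, and also was called by DESeq2.

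Other members varied more between libraries. Syvn1, the ubiquitin ligase HRD1 of ER-associated degradation, averaged 109 ± 8.76 CPM in control and 86.5 ± 12.0 in SG without overlap, and Hyou1, a large ER chaperone, 274 ± 33.9 and 203.5 ± 37.1 CPM with overlap. Hspa5, the main ER chaperone BiP, was at 733, 636 and 685 CPM in control and 518, 701 and 583 CPM in SG. SG 2 reached the control range for BiP. Creb3l2, a transcription factor that enlarges the secretory pathway, was at 51.4, 41.2 and 58.9 CPM against 27.4, 36.0 and 37.5 CPM, with a log2 fold change of -0.59 (adjusted p = 0.462).

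Outside the lists, and chosen after their values were seen, 3 further genes of ER folding and export were among the DESeq2 calls. Hspa13, an ER-associated member of the Hsp70 family, averaged 72.9 ± 8.0 CPM in control and 49.3 ± 6.51 in SG. Edem3, a relative of Edem1, averaged 170 ± 18.3 and 126 ± 5.77 CPM, and Sec23b, the partner of Sec24 proteins in the COPII coat, 262 ± 35.6 and 189 ± 13.3 CPM. Their edgeR adjusted p-values were 0.427, 0.462 and 0.496. They were picked for their low p, so they say nothing of other genes of folding or vesicle coats.

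Genes of the granular ducts and the kallikreins were higher in SG in 17 of 20 measured members (median 0.62), and 17 of 20 were also higher without control 2 (median 0.43). The member with the largest fold change was Klk1b3 (18050), a tissue kallikrein, at 113, 62.6 and 81.7 CPM in control and 145, 198 and 110 CPM in SG. SG 3 fell inside the control range, and the log2 fold change was 0.82 (SE 0.24, adjusted p = 0.528). Klk1b5 averaged 526 ± 142 CPM in control and 817.5 ± 159 in SG, and Egf 808 ± 244 and 1071 ± 253 CPM. Groups overlapped in each of these genes. Klk1, the most abundant kallikrein, was at 25030, 20490 and 28620 CPM in control and 26970, 34520 and 25770 CPM in SG.

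No granular duct gene had wholly separate groups. SG 2 held the highest level of Klk1b3, Klk1b5, Egf and Klk1 among the 6 libraries and control 2 the lowest, and the median of the list was 0.33 without SG 2. The kallikrein genes share long stretches of sequence, so their counts may have been split between copies and are not independent. Ren1, which encodes the renin that granular ducts also store, went the other way, at 4.28, 1.82 and 3.34 CPM in control and 0.889, 2.91 and 1.58 CPM in SG.

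In the list of duct cells and ionocytes, 16 of 18 were higher in SG (median 0.28; 15 of 18 and 0.14 without control 2), and in 8 the SG libraries lay wholly above the controls, 44.4% of the list where 6.63% of all genes did so. Foxi1, the transcription factor of ionocytes, was at 14.6, 14.7 and 18.1 CPM in control and 29.2, 18.4 and 22 CPM in SG. Ascl3, a transcription factor of duct ionocyte-like cells, was at 28.1, 20.5 and 28.3 CPM against 30.4, 40.6 and 34.2 CPM. Control and SG came close to touching in both genes, with log2 fold changes of 0.55 and 0.45. Krt7, a keratin of duct epithelium, averaged 105 ± 8.35 CPM in control and 137 ± 9.52 in SG. Scnn1b, a subunit of the epithelial sodium channel, averaged 51.8 ± 11.4 and 72.8 ± 10.4 CPM. The adjusted p was 0.539 or 0.540 for these 4 genes. Cftr, the chloride channel of duct and other epithelia, was lower, at 26.4, 21.5 and 20.4 CPM in control and 13.6, 14.9 and 19.3 CPM in SG (log2 fold change -0.51, adjusted p = 0.590).

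Tight junction genes were higher in 15 of 16 members, with and without control 2 (median 0.15 and 0.13), and 8 of them had SG libraries wholly above control, beside 6.63% of all genes. Cldn4, a claudin that limits sodium leak, was at 46.5, 33.8 and 50.6 CPM in control and 55.3, 60.9 and 57.4 CPM in SG (log2 fold change 0.41, SE 0.14). Cldn1, a sealing claudin, averaged 11.1 ± 1.03 and 14.1 ± 0.47 CPM. The adjusted p was 0.540 for both, so a shared direction with small differences is what the libraries show.

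Genes for fluid, serous and mucous secretion were read in separate lists. The fluid secretion and calcium signalling list had 18 of 26 members higher (median 0.05) and 13 of 26 without control 2. Its median ran from 0.02 without control 2 to 0.11 without control 3. Aqp5, the water channel of acini, was at 603 ± 62.9 CPM in control and 643 ± 79.9 in SG (log2 fold change 0.09, and -0.00 without control 2), and Chrm3, the muscarinic receptor that triggers secretion, at 38.5 ± 2.41 and 43.0 ± 2.70 CPM. Slc4a2, a chloride and bicarbonate exchanger, was at 24.7, 22.2 and 24.3 CPM in control and 28.6, 27.4 and 29.1 CPM in SG, with no overlap (log2 fold change 0.26, adjusted p = 0.540).

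Serous acinar genes were higher in 7 of 18 and lower in 11 (median -0.03, from -0.13 without SG 3 to 0.03 without control 3). Without control 2, 13 of 18 were lower (median -0.12). Prol1 was at 83610 ± 9499 CPM in control and 95640 ± 7769 in SG (log2 fold change 0.19, adjusted p = 0.818). Pip, the prolactin-induced protein, averaged 19770 ± 2955 and 15740 ± 2714 CPM, and Prlr, the prolactin receptor, 40.5 ± 3.82 and 33.6 ± 2.64 CPM. Their log2 fold changes were -0.33 and -0.27, and neither passed (adjusted p = 0.643 and 0.568). Among mucous genes 9 of 12 measured members were lower (median -0.35), and 7 of 12 without control 2 (median -0.13). C1galt1, which builds the core of mucin O-glycans, was at 44.8, 38.9 and 35.7 CPM in control and 35.4, 29.0 and 26.5 CPM in SG (log2 fold change -0.39, adjusted p = 0.563). Spdef, a transcription factor of mucous cells, averaged 129 ± 15.4 and 103 ± 20.2 CPM. Muc19, the main sublingual mucin, was at 1293, 2198 and 1096 CPM against 1395, 891 and 1388 CPM. Control 2 had the highest Muc19 level, and the log2 fold change of -0.32 became 0.02 without it.

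**Figure D2:**
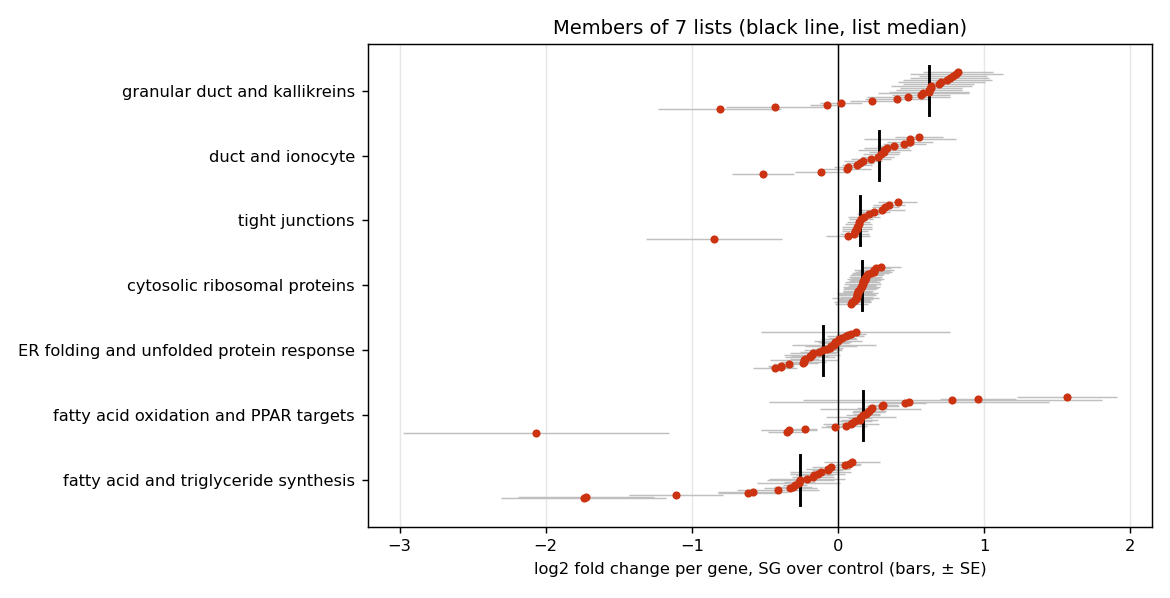
Log2 fold change of SG over control (horizontal axis) for each measured member of 7 gene lists, with bars of ± 1 SE and a black line at the list median. Kallikreins gather near 0.62, ribosomal protein genes lie between 0.09 and 0.29 with none below 0, and 20 of 23 fatty acid synthesis genes lie below 0.

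The circadian clock was read through 22 measured genes. The clock is a feedback loop in which CLOCK and BMAL1 bind E-boxes to switch on Per and Cry repressors, while REV-ERB factors and the D-box protein DBP time the output. In SG 10 of these genes were higher and 12 lower (median -0.02, from -0.10 without control 2 to 0.08 without SG 2). Per1, which DESeq2 called (adjusted p = 0.0333) and edgeR did not (adjusted p = 0.492), and Bhlhe41, an E-box repressor with lower SG levels, were the clock genes below control in all SG libraries that carry an E-box, and their promoters are shown for that reason, chosen after values were seen. They are the 250 bases before the annotated start in RefSeq on GRCm38.p6, for Per1 at chr11:69098699-69098948 (plus strand, the first of 2 listed starts) and for Bhlhe41 at chr6:145865421-145865670 (minus strand). Capitals mark the E-box CACGTG and the D-box TTATGNAA, searched on both strands.
Per1: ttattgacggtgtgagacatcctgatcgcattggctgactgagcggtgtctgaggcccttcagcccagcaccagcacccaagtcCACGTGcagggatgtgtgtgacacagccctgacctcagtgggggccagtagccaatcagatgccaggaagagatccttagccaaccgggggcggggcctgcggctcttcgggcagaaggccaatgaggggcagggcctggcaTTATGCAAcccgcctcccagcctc
Bhlhe41: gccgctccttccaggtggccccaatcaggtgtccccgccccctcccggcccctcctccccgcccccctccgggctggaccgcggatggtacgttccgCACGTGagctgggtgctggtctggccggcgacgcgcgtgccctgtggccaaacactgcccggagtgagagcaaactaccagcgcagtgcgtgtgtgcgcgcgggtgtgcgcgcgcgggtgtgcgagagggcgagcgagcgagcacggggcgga

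The E-box begins 166 bases before the start in Per1 and 153 in Bhlhe41, and the Per1 D-box 24 bases before it. The 250 bases before the other listed Per1 start held neither motif. An E-box was present in 6.02% of all 32851 promoters of this length and a D-box in 3.07%. Counting a gene with a match in any of its promoters, as for the clock genes next, the shares were 6.86% and 3.63% of 27025 genes. Of 18 clock genes with a RefSeq promoter, 5 held an E-box (Bhlhe41, Ciart, Cry1, Per1 and Tef) and 2 a D-box (Per1 and Per3). A match is a description of letters, not of binding.

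Per1 (18626) was at 104, 98.3 and 128 CPM in control and 55.5, 53.3 and 91.0 CPM in SG. SG 3 lay close under the lowest control, and the log2 fold change was -0.72 (SE 0.19; -0.81 without control 2). Bhlhe41 (79362) was at 35.9, 30.3 and 34.3 CPM against 25.5, 27.3 and 25.6 CPM (log2 fold change -0.36, SE 0.08, adjusted p = 0.428). Nr1d1, which encodes REV-ERB alpha, was at 128, 120 and 124 CPM in control and 73.6, 96.4 and 119 CPM in SG. The SG libraries spread widely here, with SG 3 almost at the control level. Dbp overlapped between the groups, at 169 ± 22.3 CPM in control and 157 ± 27.4 in SG (log2 fold change -0.11, adjusted p = 0.928).

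On the other side of the clock list, Csnk1d, the casein kinase that marks PER proteins for decay, averaged 77.6 ± 2.99 CPM in control and 89.6 ± 1.71 in SG without overlap. The labels give no hour of collection, so the hour cannot be told apart from the group.

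Glucocorticoid-responsive genes lay on both sides of control. Of 18 measured, 14 were lower in SG and 4 higher (median -0.22, and -0.09 with 11 lower without control 2). In 6 genes all SG libraries lay below control and in 3 all lay above, beside 5.22% and 6.63% of all genes. Besides Tsc22d3 and Per1, Errfi1, an inhibitor of the EGF receptor, was at 58.0, 71.4 and 74.2 CPM in control and 47.1, 47.1 and 53.7 CPM in SG (log2 fold change -0.46, SE 0.11, adjusted p = 0.462; DESeq2 called all 3). Above control stood Zbtb16, the transcription factor PLZF, at 2.66, 3.92 and 3.82 CPM against 22.3, 4.59 and 10.4 CPM (log2 fold change 1.84, SE 0.44, adjusted p = 0.462). SG 1 carried most of that difference. Fkbp5, a chaperone that dampens the glucocorticoid receptor, averaged 56.5 ± 11.1 CPM in control and 73.9 ± 3.92 in SG, and Map3k6, a stress kinase, 2.54 ± 0.11 and 3.20 ± 0.43 CPM.

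Immediate early genes, which respond within minutes to handling and stimulation, were lower in 15 of 21 (median -0.24, and -0.26 without control 2). Fosb, an AP-1 subunit, was at 0.0532, 0.180 and 10.2 CPM in control and 0.0508, 0.0260 and 0.0555 CPM in SG, which is under the floor of 3 counts in all SG libraries. Control 3 alone held a high level. Egr2, an early zinc finger factor, was at 0.505, 0.698 and 2.04 CPM against 0.381, 0.104 and 0.250 CPM, and Dusp1, a MAP kinase phosphatase, at 6.62, 9.96 and 16.1 CPM against 6.30, 4.08 and 4.53 CPM. Control 3 again held the highest level of both, and the median of the list was -0.06 without it.

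Genes of lipid metabolism were read in separate lists. Of 25 measured genes of fatty acid oxidation and PPAR targets, 20 were higher in SG (median 0.17, and 21 and 0.19 without control 2). In 8 the SG libraries lay wholly above control, beside 6.63% of all genes. The other 5 were lower, down to a log2 fold change of -2.07, and 2 lay wholly below control, beside 5.22% of all genes. The median was 0.07 without SG 2, 0.11 without control 1 and 0.25 without SG 1. None passed with all libraries, and Angptl4 was the 1 member called without control 2. Acot2, a mitochondrial thioesterase that frees fatty acids from CoA, was at 1.81, 2.00 and 1.51 CPM in control and 2.90, 4.0 and 3.47 CPM in SG. Its cytosolic relative Acot1 was at 9.90, 9.01 and 10.6 CPM against 11.2, 14.5 and 15.0 CPM, and Cpt1a, which admits fatty acids to mitochondria, at 140, 142 and 161 CPM against 167, 204 and 178 CPM. Groups were separate in all 3 genes, with log2 fold changes of 0.96, 0.46 and 0.31 and adjusted p-values of 0.496, 0.540 and 0.540. Acot1 and Acot2 are near-identical copies, so reads may have been split between them.

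Fatty acid and triglyceride synthesis showed the opposite balance, with 20 of 23 lower (median -0.26), but 14 of 23 without control 2 (median -0.12). Dgat2, which makes triglycerides, was at 4.12, 17.9 and 5.82 CPM in control and 2.56, 3.01 and 2.86 CPM in SG. Scd1, the stearoyl-CoA desaturase, was at 106, 320 and 152 CPM against 95.3, 67.7 and 105 CPM. Control 2 was the highest library for both, and without it their log2 fold changes went from -1.73 to -0.84 and from -1.11 to -0.54. The level of Fasn, which encodes fatty acid synthase, was 117 ± 34.7 CPM in control and 76.1 ± 17.6 in SG (log2 fold change -0.62, adjusted p = 0.540). Control 2 was again the highest library, the groups overlapped, and without control 2 the log2 fold change was -0.37. Acss2, which makes acetyl-CoA from acetate, differed in the same way with and without control 2, at 40.4, 39.4 and 38 CPM against 34.1, 30.3 and 31.7 CPM (log2 fold change -0.29 and -0.30, adjusted p = 0.516 and 0.763).

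Cholesterol synthesis and uptake was lower in 19 of 23 members by a small median (-0.15), which was -0.55 in DIO against the same controls. Without control 2, 17 of 23 were lower in SG (median -0.10). SG 1 differed from the other SG libraries. Cyp51, a lanosterol demethylase, was at 28.9, 45.2 and 23.3 CPM in control and 35.6, 17.7 and 17.1 CPM in SG. Without SG 1 the median of the list was -0.40, without SG 2 0.01 and without SG 3 -0.05. Ces1d, a carboxylesterase that hydrolyses triglycerides, was at 141, 105 and 130 CPM in control and 210, 175 and 168 CPM in SG, without overlap (log2 fold change 0.56, SE 0.12, adjusted p = 0.427; DESeq2 called it).

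Among hypoxia-responsive genes 12 of 18 were higher (median 0.09, 0.05 without SG 2 and 0.11 without control 2). Apart from Egln3, the glycolytic genes Ldha, lactate dehydrogenase A, at 124 ± 5.68 CPM in control and 149 ± 16.8 in SG, and Pgk1, phosphoglycerate kinase, at 92.7 ± 6.25 and 112 ± 0.77 CPM, lay above control in all SG libraries. Hk2, hexokinase 2, lay below it, at 60.1, 64.6 and 63.4 CPM against 50.2, 45.3 and 53.8 CPM. None of the 3 passed (adjusted p = 0.590, 0.540 and 0.496). In the list of insulin and metabolic hormone signalling 8 of 23 were higher (median -0.02, from -0.05 without control 2 to 0.02 without control 1), and the leptin receptor gene Lepr was at 3.17, 7.79 and 1.83 CPM in control and 3.10, 1.56 and 2.22 CPM in SG.

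The lymphocyte lists depended on control 2. T and NK cell markers were lower in 19 of 23 measured members (median -1.80), but 14 of 23 were higher without control 2 (median 0.12). B cell and lymph node markers were lower in 20 of 20 (median -2.95), and 12 of 20 were higher without it (median 0.17). Cd4, the helper T cell coreceptor, was at 1.52, 13.9 and 0.0722 CPM in control and 0.686, 0.649 and 0.555 CPM in SG. Pax5, the B cell factor, was at 0.559, 13.9 and 0 CPM against 0.0508, 0.0519 and 0.278 CPM. Ccl21a, a chemokine of lymph nodes and lymphatic vessels, was at 2.66, 34.8 and 3.78 CPM in control and 1.29, 0.857 and 1.08 CPM in SG. Unlike Cd4 and Pax5, Ccl21a remained separate without control 2, with a log2 fold change of -1.59 (adjusted p = 0.170) in place of -3.67 (adjusted p = 0.427). Lyve1, a marker of lymphatic endothelium, was at 0.638, 5.63 and 0.842 CPM against 0.356, 0.338 and 0.139 CPM, and DESeq2 called both.

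The summed level of 23 T and NK markers was 15.2 to 124 CPM in control and 20.6 to 23.7 CPM in SG, and that of 20 B cell and lymph node markers 8.95 to 271 CPM and 14.0 to 19.4 CPM. Control 2 was the highest for both, and in control 3 the members Pax5, Cr2, Fcer2a, Cxcr5 and Ccl19 had no count. Jchain, the joining chain of secreted IgA, was at 105, 155 and 48.2 CPM in control and 82.3, 44.8 and 96.2 CPM in SG.

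Macrophage and dendritic cell markers had 18 of 26 members higher in SG (median 0.15), and 23 of 26 without control 2 (median 0.38). The median was 0.02 without control 3, 0.08 without SG 2 and 0.25 without SG 1, so its size rests on single libraries. Cx3cr1, the fractalkine receptor of resident macrophages, was at 7.18, 6.58 and 6.42 CPM in control and 8.54, 12.1 and 10.2 CPM in SG, without overlap (log2 fold change 0.61, SE 0.15, adjusted p = 0.481). Cd14, a receptor for bacterial lipopolysaccharide, was at 11.3, 10.4 and 10.7 CPM against 11.6, 17.3 and 14.7 CPM, and C1qa, a complement chain made by macrophages, averaged 24.7 ± 4.21 and 31.9 ± 6.37 CPM. SG 1 was the lowest SG library for all 3 genes. Cd68 differed by 0.01 on the log2 scale and Tnf, at 0.395 ± 0.16 CPM in control and 0.311 ± 0.22 in SG, by -0.34.

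Interferon-responsive genes were evenly split, with 17 of 32 higher (median 0.02 with and without control 2), while the median in DIO against the same controls was 0.44. The SG median was -0.15 without SG 1, -0.03 without control 3 and 0.115 without SG 2. Irf1, an interferon-induced factor, was at 26.8, 25.7 and 18.5 CPM in control and 29.5, 27.0 and 29.6 CPM in SG, and Irgm1, an immunity-related GTPase, at 53.4, 42.0 and 50.1 CPM against 42.0, 37.8 and 42.4 CPM. Antigen presentation genes had 9 of 23 members higher (median -0.06; 18 of 23 and 0.12 without control 2), where the DIO median was 0.49. The SG median was -0.20 without control 3, -0.17 without SG 3 and -0.12 without control 1. H2-Aa, a class II chain, was at 99.7, 154 and 86.8 CPM in control, 99.7, 108 and 130 CPM in SG and 190, 174 and 151 CPM in DIO. SG and DIO libraries did not overlap in this gene, while SG and control did. Among lists described elsewhere, kallikreins (0.455), ribosomal proteins (0.15) and macrophage markers (0.37) had DIO medians to the same side as in SG. So had cell cycle (-1.52), parotid (-4.59) and red blood cell markers (0.79). T and NK markers (0.34), immediate early genes (0.29) and endothelial genes (-0.25) had DIO medians to the other side. All DIO medians given here are from the fit with control 2. Without that library the SG median of T and NK markers was 0.12, the same side as in DIO. SG and DIO fold changes share the control libraries, and the difference between SG and DIO was not tested.

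Markers of tissues next to the glands also moved with single libraries. The parotid acinar list had 8 measured members of 14, of which 7 were lower in SG (median -2.43), and -0.76 without control 2. Amy1, salivary amylase, was at 1673, 8377 and 412 CPM in control and 1673, 11.8 and 48.5 CPM in SG. Prb1, a parotid proline-rich protein, was at 5.99, 20.4 and 1.88 CPM against 3.17, 0 and 0.0278 CPM, and Bpifa2, which serous cells of several glands secrete, at 5209, 24440 and 1951 CPM against 6288, 1079 and 1179 CPM. SG 1 was like control 1 in these genes, SG 2 and SG 3 were low, and without SG 1 the median was -6.20. The summed level of the 8 markers, which Car6 of the submandibular gland dominates, was 64950 to 83200 CPM in control and 52980 to 67560 CPM in SG.

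Of the adipocyte markers 15 of 19 were lower (median -1.72, and -0.18 without control 2). Adipoq, adiponectin, was at 0.372, 9.75 and 1.37 CPM in control and 0.0508, 1.35 and 0.389 CPM in SG, Cfd, the adipokine adipsin, at 1.78, 43.7 and 10.9 CPM against 0.178, 4.05 and 1.5 CPM, and Plin1, the lipid droplet coat protein, at 0.213, 5.63 and 1.37 CPM against 0.0762, 0.234 and 0 CPM. The summed level of the 19 markers was 260 to 464 CPM in control and 241 to 306 CPM in SG, and Ucp1 had no count in control 1 or in any SG library. The lower lipid synthesis genes and Angptl4 stand beside these values, whose part in them was not tested.

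All 30 cell cycle genes measured had a lower mean in SG by the fit (median -2.17), as had 25 of 30 without control 2 (median -0.71), and in 17 genes the SG libraries lay wholly below control, 56.7% of the list beside 5.22% of all genes. Mki67, the proliferation antigen, was at 7.39, 45.5 and 5.20 CPM in control and 3.79, 3.63 and 2.39 CPM in SG. Ube2c, which drives exit from mitosis, was at 2.45, 14.8 and 1.66 CPM against 0.635, 1.19 and 0.472 CPM, and Aurka, a mitotic kinase that DESeq2 called, at 1.73, 9.60 and 1.27 CPM against 1.04, 0.857 and 0.361 CPM. Control 2 was far above all others, yet control 1 and control 3 also exceeded each SG library in these 3 genes. Without control 2 the log2 fold change of Mki67 was -0.95 in place of -2.57 and that of Ube2c -1.43 in place of -3.04, with adjusted p-values of 0.776 and 0.566. The lymph node markers of control 2 move with these genes, and their part was not tested.

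Of 10 red blood cell markers 8 were measured, and each was higher in SG (median 1.79, and 1.76 without control 2). Hbb-bs, a beta globin, was at 23.2, 29.3 and 35.0 CPM in control and 36.6, 244 and 136 CPM in SG. Hba-a1, an alpha globin, was at 9.98, 11.8 and 15.3 CPM against 12.8, 77.8 and 57.8 CPM. SG 1 was at or near the control level in both, and without SG 1 Hbb-bs, Hba-a1, Hbb-bt and Alas2, which makes the first haem precursor in red cells, passed with adjusted p-values of 0.0360, in place of 0.427, 0.481, 0.428 and 0.561. The range over the edgeR alternatives was 0.0360 to 0.814 for the 3 globins. Globin genes of the same type, alpha or beta, are near-identical copies, so their counts are not independent. Both types mark red blood cells, so they are not separate findings either. Skeletal muscle genes had 6 measured members of 16 and a median of 1.81, with SG 2 above all others. Acta1, skeletal actin, was at 0.106, 0.473 and 0.625 CPM in control and 0.152, 11.5 and 0.278 CPM in SG, and Mb, myoglobin, at 0.186, 0.360 and 0.433 CPM against 0.305, 7.87 and 0.167 CPM. Without SG 2 the median was -0.53, and without control 2 it was 1.93.

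**Figure D3:**
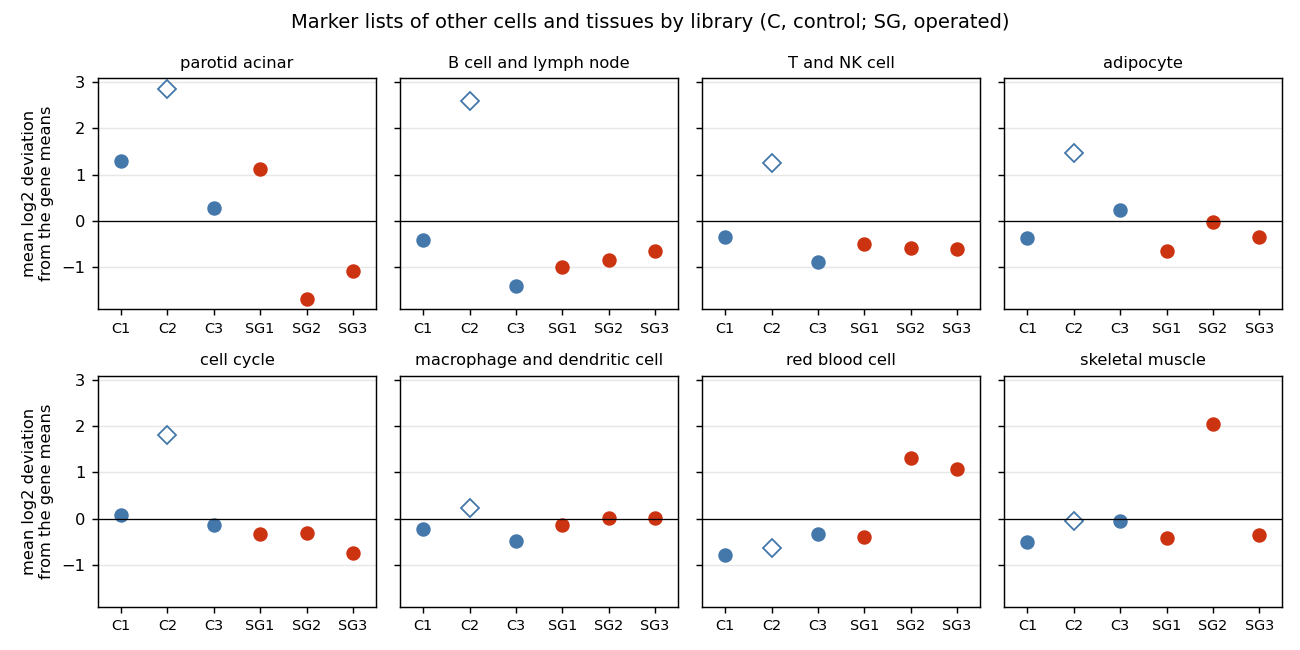
Level of 8 marker lists in each control (C) and SG library, as the mean over members of the log2 deviation from each gene's mean over all libraries; the open diamond is control 2. Control 2 is the highest library for parotid, B cell, T cell, adipocyte, cell cycle and macrophage markers, SG 2 and SG 3 for red blood cell markers and SG 2 for skeletal muscle markers.

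Genes of supporting cells were looked at next. Fibroblast and matrix genes were lower in 21 of 25 (median -0.21, and -0.14 with 18 of 25 without control 2), with SG libraries wholly below control in 7, beside 5.22% of all genes. The median was -0.11 without SG 3. Col3a1, a fibrillar collagen, was at 39.5, 52.1 and 45.6 CPM in control and 35.4, 34.4 and 33.0 CPM in SG (log2 fold change -0.42, adjusted p = 0.584). Col5a1, which nucleates collagen fibrils, averaged 6.66 ± 1.07 and 4.64 ± 0.48 CPM, and Col1a1 25.9 ± 3.82 and 22.7 ± 2.51 CPM. Endothelial genes were higher in 13 of 18 (median 0.13), but the median was -0.00 without SG 3, 0.05 without SG 2 or control 1, 0.20 without control 2 and 0.22 without SG 1. Among them was Sox18, an endothelial transcription factor, at 2.50, 2.16 and 1.61 CPM against 3.73, 4.70 and 3.17 CPM (log2 fold change 0.89, adjusted p = 0.561).

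Genes for cytosolic ribosomal proteins were higher in SG in 32 of 32 members by a small amount (median 0.17, range 0.09 to 0.29; 32 of 32 and 0.14 without control 2), and the SG libraries lay wholly above control in 10, beside 6.63% of all genes. The median was 0.11 without SG 2 and 0.24 without SG 1. Rpl5 was at 488, 491 and 487 CPM in control and 558, 595 and 606 CPM in SG (log2 fold change 0.26, SE 0.10, adjusted p = 0.584). Its controls differed by under 1% and every SG library was above them. Scaled by library totals alone, the list had a median of 0.18. Within this list SG 1 was the lowest SG library, with a mean log2 deviation of -0.08, where SG 2 was at 0.17, SG 3 at 0.10 and the controls at -0.13 to -0.06. Respiratory chain genes, encoded in the nucleus, were higher in 26 of 27 (median 0.12), and 23 of 27 without control 2 (median 0.05). The median was 0.08 without SG 2 and 0.18 without control 3. Cox5a, a subunit of cytochrome c oxidase, was at 66.3, 60.4 and 64.0 CPM against 68.5, 85.0 and 78.4 CPM.

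**Figure D4:**
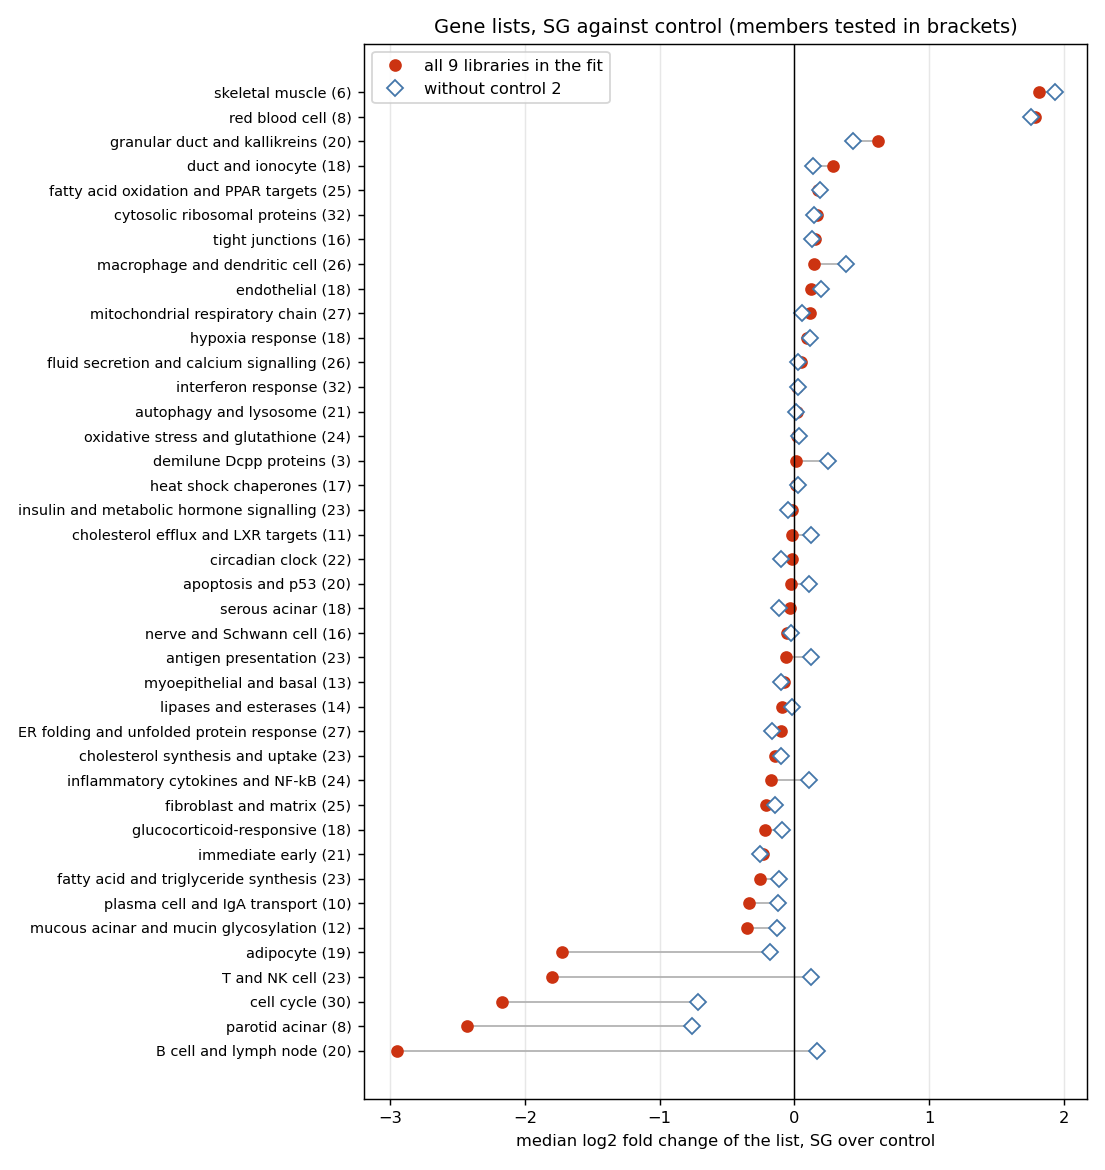
Median log2 fold change of SG over control for 40 gene lists, with all libraries (filled) and without control 2 (open), and the number of measured members in brackets. Medians of lymph node, T cell, cell cycle, adipocyte and parotid markers shrink or turn without control 2, while those of the red blood cell, tight junction and ribosomal lists move little.

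Finally, 12 genes that an earlier analysis of these data had picked for DIO against control were read in the operated glands. The DIO and SG comparisons share the control libraries, and the DIO values are a description of genes chosen for them. SG libraries lay wholly to 1 side of control in 8 of the 12, above in Zbtb16, Ces1d and Sash1 and below in Bhlhe41, Nr1d1, Dgki, Nek10 and Golph3l, and none of the 12 passed in SG against control with all libraries. Over all genes 11.8% were wholly to 1 side, but since the 12 were picked with the same control libraries, nothing is read from their count. The mean SG level lay between the control and DIO means in each of the 12 genes. Picking genes for a wide gap between control and DIO favours that order, so nothing is read from it either. Hspa8, the constitutive heat shock cognate, averaged 527 ± 58.5 CPM in control, 1013 ± 142 in DIO and 587 ± 13 in SG. Igtp, an interferon-induced GTPase, averaged 10.4 ± 1.46, 20.6 ± 3.19 and 11.1 ± 1.29 CPM in the same order, and Esp8, an exocrine gland-secreted peptide, 32.4 ± 3.09, 61.6 ± 6.45 and 34.9 ± 7.06 CPM. These 3 and Dbp were the genes whose SG libraries overlapped with control.

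The other members kept some distance from control. Golph3l, a Golgi protein of secretory cells, was at 57.3, 48.9 and 52.4 CPM in control and 35.8, 45.0 and 39.6 CPM in SG, with a DIO mean of 33.2 ± 1.66 CPM. Nek10, a kinase of the NIMA family, was at 3.70, 4.89 and 5.87 CPM against 3.48, 1.92 and 2.97 CPM, with 1.26 ± 0.20 CPM in DIO, and Sash1, a scaffold protein, averaged 34.8 ± 1.67, 50.6 ± 3.05 and 39.9 ± 2.54 CPM in control, DIO and SG. The log2 fold changes in SG against control were -0.40 (adjusted p = 0.481), -0.79 (adjusted p = 0.563) and 0.20 (adjusted p = 0.590).

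Genes with the smallest p in SG against control did not all have intermediate levels. DIO means were 1.08 ± 0.24 CPM for Dclk2, 30.7 ± 1.12 for Susd2 and 19.5 ± 1.29 for Ripor2, all nearer to SG than to control. For Tsc22d3, Kcnk6 and Per1 the DIO means of 61.9 ± 4.21, 37.0 ± 1.31 and 108 ± 12.9 CPM were near the control means. These are levels side by side, and SG against DIO was not tested.

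**Figure D5:**
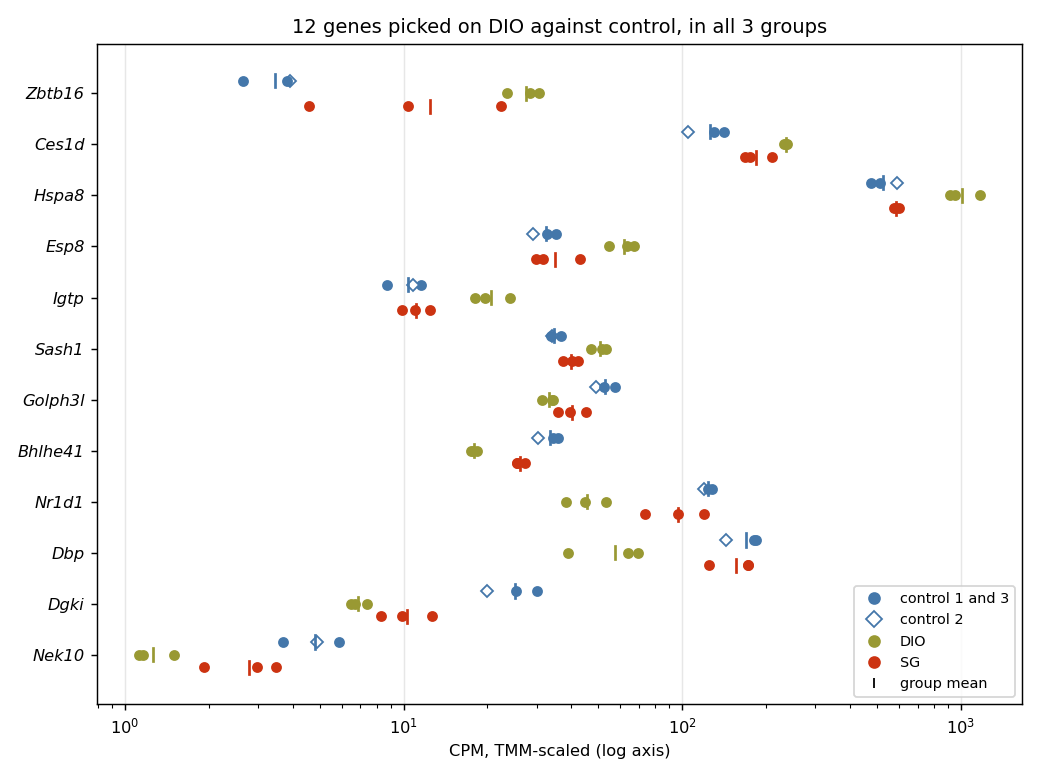
Levels in CPM (log axis) of 12 genes picked on DIO against control, in control, DIO and SG libraries, with group means as vertical bars and control 2 as an open diamond. Hspa8, Igtp, Esp8 and Dbp overlap between SG and control, and Zbtb16 spreads from 4.59 to 22.3 CPM in SG.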

How the data were processed

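RNA from submandibular and sublingual glands was extracted with TRIzol, and polyadenylated RNA was sequenced from VAHTS Universal V6 libraries, per the labels' protocols. HISAT2, Salmon and GRCm39 are listed in the submitters' processing notes. The sources used here do not give versions, strand setting, annotation release or how reads matching several genes were treated. The authors deposited whole-number read counts per gene (23256 genes) and FPKM values, which are counts scaled by gene length and library size. For 100% of nonzero values both tables gave the same gene length within 0.1%.

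Counts were fitted with edgeR 4.0.16 (R 4.3.3, limma 3.58.1): TMM scaling, filterByExpr by group, 1 quasi-likelihood fit of all 9 libraries in 3 groups, contrast SG minus control, two-sided, Benjamini-Hochberg over 14912 genes, threshold 0.05. The code was tested on simulated data. SE was the log2 fold change divided by the square root of F. FPKM served only to compare genes. The fit had 6 residual degrees of freedom and a biological coefficient of variation (common to all genes) of 0.206, and the median SE of a log2 fold change was 0.155 (quartiles 0.108 to 0.321). Alternatives were other scalings, filters and sample sets, DESeq2 1.42.0, each library left out, and a replicate block. The groups carry the same replicate numbers, but deviations of same-numbered control and SG libraries correlated at 0.142, -0.290 and 0.231 across genes, so the numbers were not taken as pairs.

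The gene lists, the 12 genes picked on DIO and the question itself were chosen with earlier results of these data known, and lists were described, not tested. Named genes were the 10 on each side with the smallest p, at least 2 CPM in a group and no overlap, genes called without control 2, up to 4 list members with the smallest p (3 without control 2), a panel of 17 genes and the 10 genes of highest FPKM. Some genes that meet this rule are not reported here. Dusp1, Fkbp5, Map3k6, Alas2, Aurka, Hspa13, Edem3 and Sec23b were chosen after their values were seen. Promoters came from a RefSeq table on GRCm38.p6, and no coordinates of GRCm39 genes were used here.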

Additional observations from a re-analysis of the deposited data

How the results depend on the processing

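Of 18 alternatives, DESeq2 called 57 genes (14 higher, 43 lower) and the fit with no filter on low counts 3 (1 higher, and Dclk2 and Dgki as the 2 lower). Leaving out 1 library gave 0 to 6 calls (0 to 4 higher, 0 to 2 lower): 3 without control 2 (Dclk2, Dgki, Angptl4), 6 without SG 1 (Dclk2, Dgki, 3 globins and Alas2), 1 without SG 3 (Tob2) and 0 without any other. The other edgeR alternatives gave 0. The replicate block, whose numbers did not pair the libraries, gave 0 calls (1233 genes at an unadjusted p under 0.05, smallest adjusted p 0.0815). With only SG and control libraries in the fit and control 2 left out, 0 genes passed (746 at an unadjusted p under 0.05). For 129 genes, 2227 of 2303 log2 fold changes under the alternatives kept direction and side of the threshold, 44 passed and 32 changed sign. Log2 fold changes with 1 library left out crossed 0 in the following genes (lowest to highest, with the libraries whose absence turned the sign): Smgc -0.0664 to 0.874 (SG 1), Muc19 -0.510 to 0.0242 (control 2), Aqp5 -0.00591 to 0.174 (control 2, SG 3), Dbp -0.229 to 0.0296 (SG 1), H2-Aa -0.173 to 0.260 (control 2, SG 1, SG 2), Acta1 -0.914 to 3.85 (SG 2), Mb -0.471 to 3.62 (SG 2), Igtp -0.0133 to 0.180 (control 3), Esp8 -0.0688 to 0.206 (SG 1), Dcpp1 -0.338 to 0.248 (control 2, SG 2, SG 3), Cd68 -0.165 to 0.411 (control 1, control 3, SG 2), Tnf -0.919 to 0.102 (control 3, SG 3), Scgb1b27 -0.0600 to 0.218 (control 2, SG 3) and Car6 -0.189 to 0.0950 (control 3, SG 1). The sign also turned with only SG and control libraries and without control 2 (Muc19 0.0235, Aqp5 -0.00205, H2-Aa 0.260, Dcpp1 0.248, Scgb1b27 -0.0133), at a filter of 2 CPM in 3 libraries (Cd68 -0.00114), with only SG and control libraries (Cd68 -0.000558) and with the replicate block (H2-Aa 0.0195). Of 756 list medians under the alternatives, 729 lay within the spread between libraries. The rest came mostly from leaving out control 2, SG 1 or SG 2, and beside those in the text were myoepithelial genes at -0.27 and nerve genes at 0.13 without SG 1, nerve genes at -0.28 and clock genes at 0.08 without SG 2, cytokine genes at 0.11 without control 2, tight junction genes at 0.19 without control 1, adipocyte markers at -0.50 with only SG and control libraries, and, at the 2 CPM filter, adipocyte markers at -0.24, muscle at 0.42 and cell cycle at -1.30. The cause was not tested. With 3 libraries a group, the upper quartile of the standard error was 0.321 on the log2 scale, and genes near the floor of 3 counts (Fosb, Prb1, Angptl4) are imprecise.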
